A study of Mus musculus with 2 samples.

Results

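The genes described are 9 factors of nonsense-mediated mRNA decay: *Upf1*, *Upf2*, *Upf3a*, *Upf3b*, *Smg1*, *Smg5*, *Smg6*, *Smg8* and *Smg9*. They were chosen by name from 21887 positioned mouse protein-coding genes, for a pathway that DUX4 impairs in human muscle cells. Every peak whose summit lay inside the RefSeq span of a listed gene, or within 20 kb of it, was taken, which gave 14 of the 51356 peaks in the authors' deposited list. The question was where, and how strongly, a protein with the homeodomains of mouse Dux occupied these loci.

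The experiment was chromatin immunoprecipitation followed by sequencing (ChIP-seq), which counts DNA fragments pulled down with a protein. The host was C2C12, an established line of mouse myoblasts. The immunoprecipitated library (1 sample) came from cells expressing codon-altered MMH, pulled down with the DUX4 antisera MO488 and MO489. The control library (1 sample) came from MMH cells pulled down with an antibody that the sample label gives as anti-HA and the series text as anti-GFP. Both were taken after 18 h with 2 ug/ml doxycycline, so both groups carry the induced transgene. MMH is a chimera with the amino-terminal part of mouse Dux, homeodomains included, followed by the carboxy-terminal part of human DUX4. It is therefore neither native protein, and the line is 1 clone selected with puromycin. With 1 library per group there is no replicate check, and each interval below covers counting error only, not variation between cultures.

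Nonsense-mediated decay removes mRNAs on which translation stops too early, and it also sets the level of many normal transcripts. The helicase Upf1 is recruited to the terminating ribosome, and Upf2 and Upf3 proteins connect it to exon junction complexes left downstream by splicing. The kinase Smg1, held in a complex with Smg8 and Smg9, phosphorylates Upf1. Phosphorylated Upf1 then binds adaptors such as Smg5 and Smg6, of which Smg6 cuts the RNA and Smg5 leads to removal of the poly(A) tail and the cap. In human muscle cells, DUX4 is known to lower the level of UPF1 protein. ChIP-seq measures occupancy of DNA, and neither RNA nor protein of these factors was measured here.

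The sequences before 3 gene starts are shown. They precede the starts that a peak came closest to in these windows, and that of the central helicase, which had no peak nearby. Each is the 250 bases before the start, 5′ to 3′ on the gene's strand, from RefSeq for GRCm38.p6. *Smg9* (chr7:24399378-24399627, plus strand) had a summit 232 bp after its start, so no base of its peak is printed. *Upf1* (chr8:70353280-70353529, minus strand) had none within 20 kb of its span. *Arl6ip1* (chr7:118129626-118129875, minus strand), the coding gene that follows *Smg1*, had a summit 56 bp before its start, and capitals mark the 21 bases centred on that summit.
Smg9: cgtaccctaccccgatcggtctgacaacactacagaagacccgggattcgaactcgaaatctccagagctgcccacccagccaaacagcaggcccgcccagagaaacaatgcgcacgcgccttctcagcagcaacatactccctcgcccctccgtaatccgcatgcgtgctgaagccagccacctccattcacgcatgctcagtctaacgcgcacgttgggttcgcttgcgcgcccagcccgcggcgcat
Upf1: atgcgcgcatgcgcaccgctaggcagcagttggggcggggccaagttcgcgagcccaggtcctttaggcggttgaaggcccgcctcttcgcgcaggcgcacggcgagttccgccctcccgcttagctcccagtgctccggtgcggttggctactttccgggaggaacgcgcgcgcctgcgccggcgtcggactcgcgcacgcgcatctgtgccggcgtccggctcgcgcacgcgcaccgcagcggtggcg
Arl6ip1: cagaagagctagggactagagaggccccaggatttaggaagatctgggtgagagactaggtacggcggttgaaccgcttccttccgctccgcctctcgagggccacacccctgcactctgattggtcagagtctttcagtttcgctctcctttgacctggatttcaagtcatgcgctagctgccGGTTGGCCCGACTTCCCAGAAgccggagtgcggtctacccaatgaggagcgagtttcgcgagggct

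A peak lay in the windows of 7 of the 9 genes, against 62.3% of all protein-coding genes measured the same way. The 7 were *Upf2*, *Upf3b*, *Smg1*, *Smg5*, *Smg6*, *Smg8* and *Smg9*, and the 2 without a peak were *Upf1* and *Upf3a*. The share of 77.8% had an exact binomial 95% interval of 40.0 to 97.2%, which holds the share of all coding genes. Longer genes have wider windows, so each gene was also read against the coding genes of its own length class, each class being 10% of coding genes. The 7 genes with a peak compared with 6.36 from adding up the shares of those classes. The 14 peaks compared with 21.9 from adding up the classes' mean numbers of peaks. The longest class, which holds *Smg1* and *Smg6*, has a mean of 6.54 and is the widest in length.

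The 9 windows covered 0.932 Mb and held 15.0 peaks per Mb (95% Poisson interval 8.21 to 25.2). The merged windows of all coding genes held 19.7 peaks per Mb, a value inside that interval. Inside the 9 gene spans there were 9 peaks, or 15.7 per Mb (7.20 to 29.9), and in the flanks 5 peaks, or 13.9 per Mb (4.51 to 32.4). The spans held 64.3% of the peaks and 61.4% of the window bases, so summits were spread over spans and flanks in nearly the proportion of their lengths. A summit lay inside the span of 4 of the 9 genes (*Upf2*, *Smg1*, *Smg6* and *Smg9*), against 32.3% of coding genes. Within 5 kb the count was 5 of 9, with *Upf3b* added, against 43.2%. Neither comparison was matched for gene length, and the members' median span was 25.3 kb, against 17.2 kb for all coding genes.

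**Figure D1:**
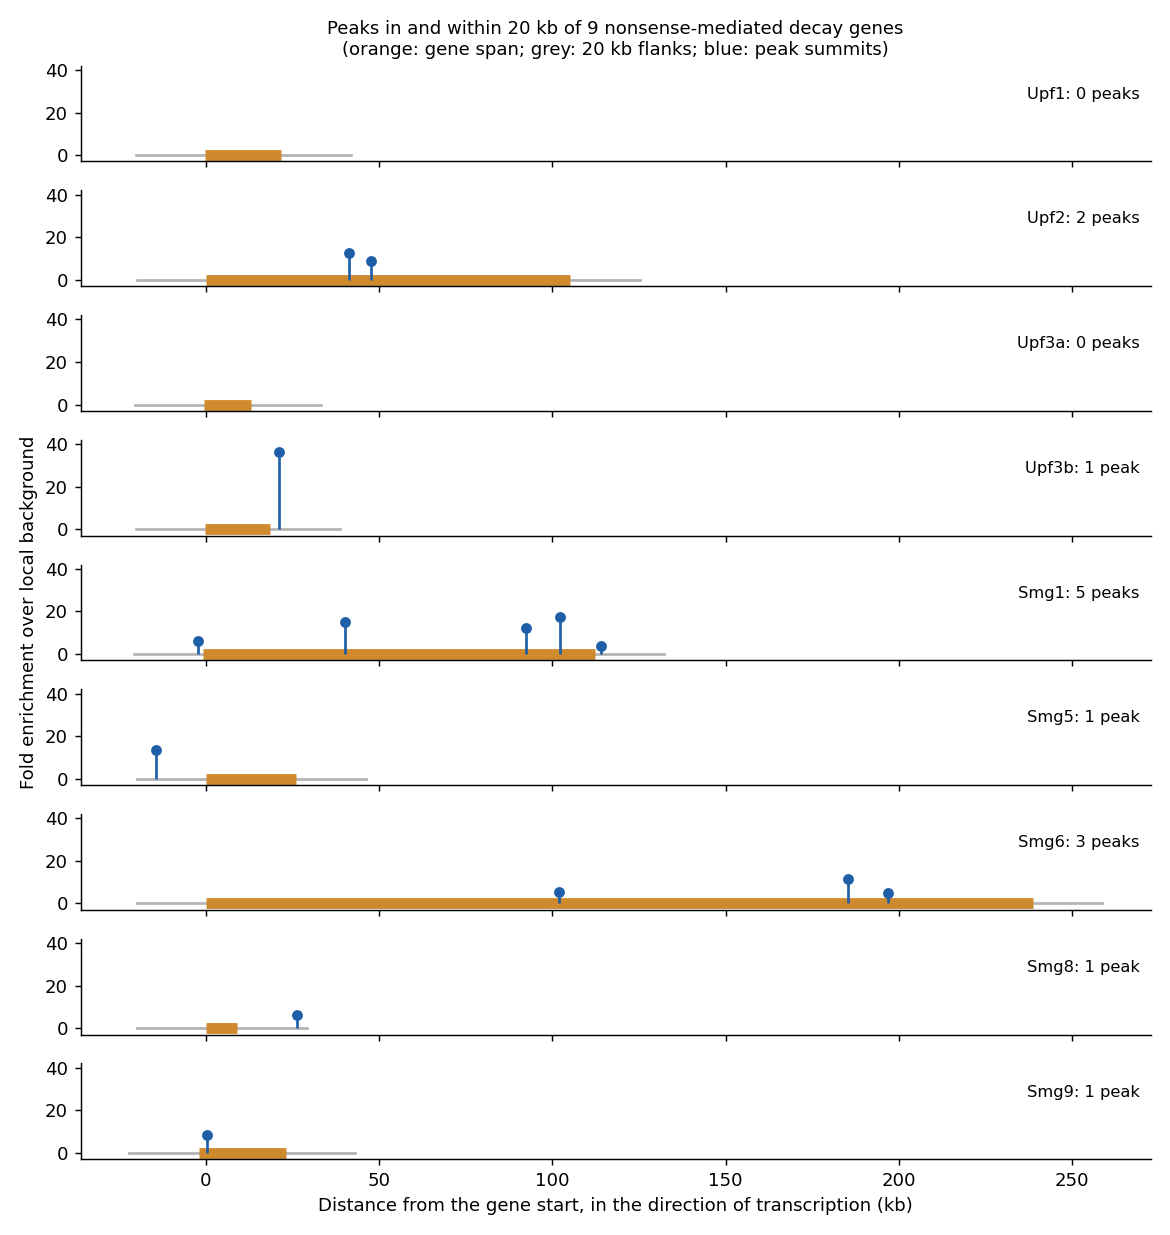
Summits in the 9 windows, plotted by distance from the gene start in the direction of transcription (kb) against fold enrichment, with the gene span in orange and the 20 kb flanks in grey. The tallest peak, 36.1-fold, lies just past the end of Upf3b, Smg1 has 5 peaks, and Upf1 and Upf3a have none.

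*Upf1*, the helicase on which the pathway turns, spans 70331493 to 70353423 on chromosome 8 (mm10, minus strand). No peak was called inside it or within 20 kb. The nearest summit lay 52.0 kb outside the span, with a pileup of 40 fragments and 8.18-fold enrichment. Of coding genes in the same length class (17.2 to 24.6 kb), 38.8% also had no peak in their window. Among peaks at the lowest local background of the list, the lowest pileup was 13 fragments and the lowest fold 2.79, so occupancy under about that level would not be listed. Local background is known only at listed peaks, so the limit at *Upf1* itself is not known. If background there was at its lowest, a binding site weaker than that was not detectable in these files.

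*Upf2*, the bridge between Upf1 and Upf3, spans 5951447 to 6056703 on chromosome 2 (plus strand) and had 2 peaks, both inside the gene. The stronger, at 5992592 to 5993072, had a pileup of 62 fragments over a local background of 4.01, or 12.6-fold enrichment (9.68 to 16.1, the 95% Poisson interval of the pileup with the background held fixed, as for each fold below). The other, at 5999025 to 5999356, had 43 fragments over 4.01, or 8.78-fold (6.41 to 11.8). The intervals overlap, so counting error does not separate their heights. The summits lay 6.38 kb apart, 41.4 and 47.7 kb after the gene start, at 39.3% and 45.4% of the gene's length. Coding genes of that length class had a median of 2.0 peaks per window.

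Of the *Upf3* paralogs, *Upf3b* had the strongest peak of the 9 windows and *Upf3a* had none. *Upf3b*, which couples the decay machinery to the exon junction complex, spans 37091678 to 37110471 on chromosome X (minus strand). Its single peak, at 37088766 to 37089399, had a pileup of 180 fragments over 4.01. Fold enrichment was 36.1 (31.0 to 41.7) and −log10 p was 224, and 95.9% of all peaks in the list had a lower fold. The summit lay 2.53 kb past the end of *Upf3b* and 3.92 kb before the start of *Rpl39*, a ribosomal protein gene, so it is 21.2 kb from the *Upf3b* start. *Upf3a* spans 13785055 to 13798723 on chromosome 8 (plus strand) and had no peak within 20 kb. Its nearest summit lay 33.2 kb outside the span, with 125 fragments and 17.6-fold enrichment. In its length class 44.9% of coding genes had no peak, and in that of *Upf3b* 38.8% had none.

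The kinase gene *Smg1* had the most peaks. It spans 118131308 to 118244437 on chromosome 7 (minus strand) and had 5, or 32.7 peaks per Mb of window (10.6 to 76.2). That interval holds the 19.7 per Mb of all coding gene windows, and coding genes of its length class, which runs from 109 kb up, had a median of 5.0. The peak at 118141044 to 118141621 had 87 fragments over 4.01, or 17.6-fold enrichment (14.1 to 21.6). The peak at 118203354 to 118203784 had 80 fragments over 4.49, or 14.8-fold (11.7 to 18.3), and that at 118150960 to 118151455 had 66 over 4.49, or 12.2-fold (9.49 to 15.5). These 3 lay inside the gene, at 91.2%, 36.1% and 82.4% of its length, and their intervals overlap. Just outside the span, on either side, the enrichment was lower. A peak of 32 fragments (6.02-fold, 4.17 to 8.42) had its summit 2.17 kb before the *Smg1* start and 1899 bp after that of *4930583K01Rik*, a noncoding gene. One of 17 fragments (3.59-fold, 2.17 to 5.63) lay 1.63 kb past the gene's end. The peak past the end was the weakest of the 14, with only 1.40% of the list lower, and it is the one at the *Arl6ip1* start printed above. It was also the only one of the 14 that overlapped a promoter window of the RefSeq table, which runs from 250 bases before to 50 after a gene start. The window is that of *Arl6ip1*, and no member's promoter window was overlapped by a peak. Of all promoter windows, 712 of 32851 (2.17%) were overlapped. That is a share of windows, and the matching share of all peaks was not computed.

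The other subunits of the kinase complex, *Smg8* and *Smg9*, had 1 peak each. *Smg9* spans 24397517 to 24422777 on chromosome 7 (plus strand). Its peak, at 24399732 to 24400098, had 40 fragments over 4.01, or 8.18-fold enrichment (5.90 to 11.1), close to the list's median of 8.02. It was the only member with a summit within 1 kb of the annotated start used here, against 5.37% of the coding genes with such a start. That start lies 2111 bp inside the span, so the summit is not within 1 kb of the span's end. *Smg8* is short, from 87077732 to 87086777 on chromosome 11 (minus strand). Its peak, at 87060321 to 87060682, had 30 fragments over 4.01, or 6.18-fold (4.24 to 8.74), 17.2 kb past the end of *Smg8* and inside the neighbouring gene *Gdpd1*.

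The adaptors that read phosphorylated Upf1 differed in where their peaks lay. *Smg6*, the endonuclease gene and the longest of the 9, spans 74925854 to 75164448 on chromosome 11 (plus strand). It held 3 peaks, all inside, or 10.8 per Mb of window (2.22 to 31.5), while coding genes of its length class, which starts at 109 kb, had a median of 5.0 peaks. The class is wide, and the interval of the *Smg6* density holds the 19.7 per Mb of all coding gene windows. The strongest, at 75110996 to 75111522, had 63 fragments over 4.51, or 11.6-fold enrichment (8.97 to 14.8). The peak at 75027614 to 75027983 had 26 fragments over 4.01, or 5.39-fold (3.59 to 7.80), and that at 75122580 to 75123180 had 24 over 4.02, or 4.98-fold (3.26 to 7.31). The strongest lay above both others beyond counting error. The summit of the weakest also lay within *Gm51907*, a long noncoding RNA gene inside *Smg6*. All 3 were far from the start, 102, 185 and 197 kb into the gene. *Smg5*, the other adaptor, spans 88336259 to 88362338 on chromosome 3 (plus strand). Its peak, at 88321481 to 88321963, had 67 fragments over 4.01, or 13.6-fold (10.6 to 17.2). It lay 14.5 kb before *Smg5*, inside *Cct3*, a gene for a chaperonin subunit, and 3.29 kb before the start of *Glmp*.

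For 11 of the 14 peaks the member itself was the nearest coding gene. The other 3 were nearest to *Arl6ip1*, *Cct3* and *Gdpd1*. Counting only peaks whose nearest coding gene is the member left 5 of 9 genes (*Upf2*, *Upf3b*, *Smg1*, *Smg6* and *Smg9*), against 46.8% of coding genes. This comparison was not matched for gene length. The nearest summits just outside the 20 kb limit lay 23.9 kb from *Upf3b* (24.1-fold), 29.0 kb from *Smg9* (8.38-fold) and 33.2 kb from *Upf3a*. Those just inside it were the *Smg8* peak at 17.2 kb and the *Smg5* peak at 14.5 kb.

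**Figure D2:**
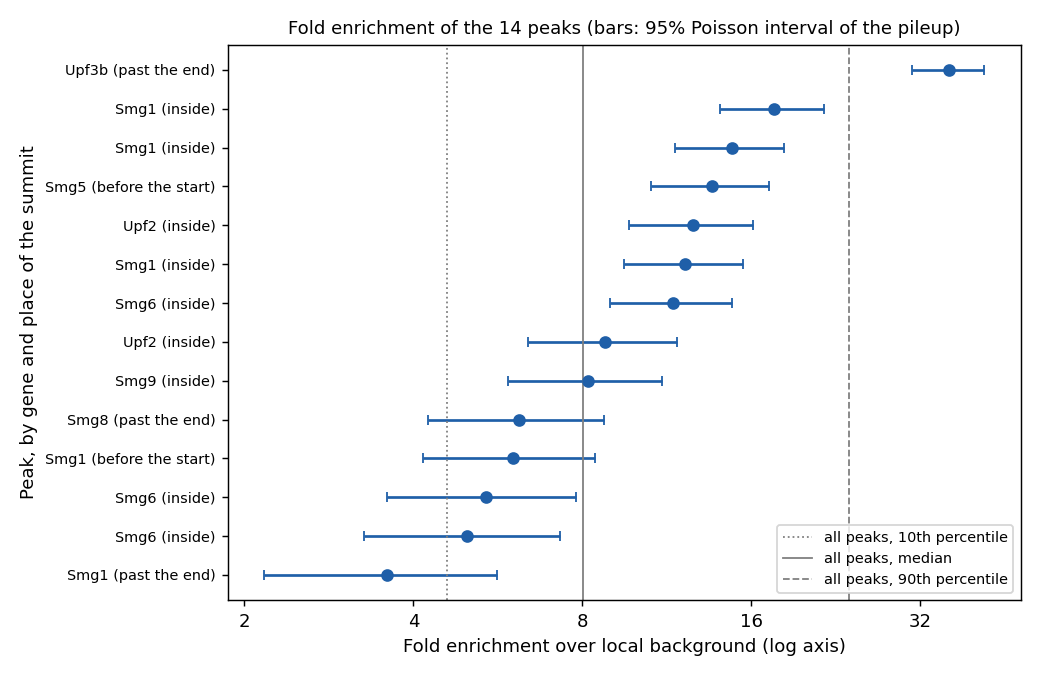
Fold enrichment over local background (log axis) of the 14 peaks, with 95% Poisson intervals of the pileup and vertical lines at the 10th percentile, the median and the 90th percentile of all peaks. Only the Upf3b peak, at 36.1-fold, lies above the 90th percentile, and 5 peaks lie below the median of 8.02.

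As a group the 14 peaks were of ordinary height. Fold enrichment ranged from 3.59 to 36.1 with a median of 10.2, against 8.18 for all peaks in coding gene windows. Of the 14, 9 were at or above the median of the whole list and 5 below it. Widths ran from 316 to 634 bp with a median of 456 bp, against 430 bp for all peaks. The best peak per member had a median of 12.6-fold over the 7 members with a peak, against 12.2-fold over the 13633 coding genes with one. That comparison is not matched for gene length. Beside the median of their own length class, *Smg1* and *Smg6* (class 19.9), *Upf2* (13.9), *Smg9* (11.8) and *Smg8* (9.77) were lower. *Upf3b* (class 11.0) and *Smg5* (11.8) were higher. Local background, which is set by the control library where it exceeds its floor, was at that floor of 4.01 in 9 of the 14 peaks. It was highest at 4.51, in *Smg6*.

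**Figure D3:**
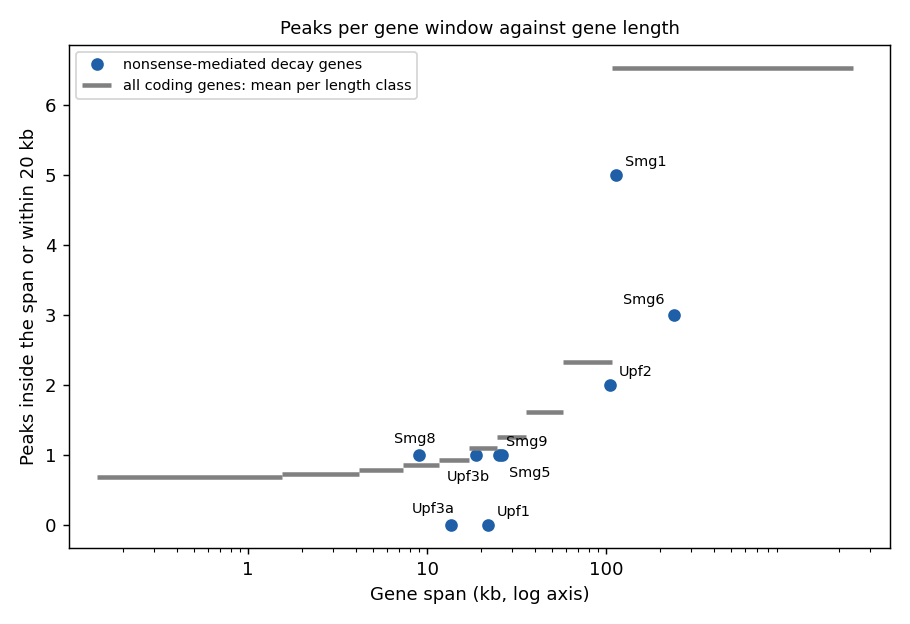
Peaks per window against gene span (kb, log axis) for the 9 genes (blue circles) and the mean over all coding genes in each length class of 10% of genes (grey lines over the class's range). Smg1, with 5 peaks, and Smg6, with 3, lie below the mean of 6.54 in their class, Upf2, with 2, lies below 2.33, and the shorter genes have 0 or 1.

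The starts of these genes were mostly away from peaks. The distance from the gene start to the nearest summit was 0.232 kb for *Smg9* and 2.17 kb for *Smg1*. It was 14.5 kb for *Smg5*, 21.2 kb for *Upf3b* and 26.3 kb for *Smg8*. For *Upf3a*, *Upf2*, *Upf1* and *Smg6* it ran from 33.7 to 73.9 kb. The promoter windows were searched for a mouse Dux pair of half-sites, TGATT and AATCA with 1 base between, which reads the same on both strands. They were also searched, on both strands, for a human DUX4 pair, TAAT and AATCA with 2 bases between. The pairs share the half-site AATCA, so they overlap in letters.

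None of the 9 promoter windows held either pair, which is also rare elsewhere. The Dux pair occurred in 0.0335% of 32851 promoter windows and the DUX4 pair in 0.350%. With 1 mismatch allowed the members again had 0 of 9, against 0.734% and 5.36% of all windows. The half-site AATCA alone, on either strand, was in 0 of 9 member windows, against 37.0% of all windows and 63.3% of the 712 windows overlapped by a peak. Base composition also differed between member windows and all windows, but little for windows overlapped by a peak (median 51.3% G and C). The member windows had 53.3 to 72.3% G and C with a median of 66.0%, against a median of 52.7% for all windows. Among windows within the members' range of G and C, 25.4% held the half-site. That range is wide, and its windows were not matched to the members' median. The median number of CG dinucleotides also differed, at 29 per member window against 7 over all windows. All windows include those of noncoding genes. The part of base composition in the members' count of 0 was not tested further, and these letters say nothing about sites outside the windows. The *Arl6ip1* sequence printed above held 1 half-site, and those of *Smg9* and *Upf1* held 0.

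**Figure D4:**
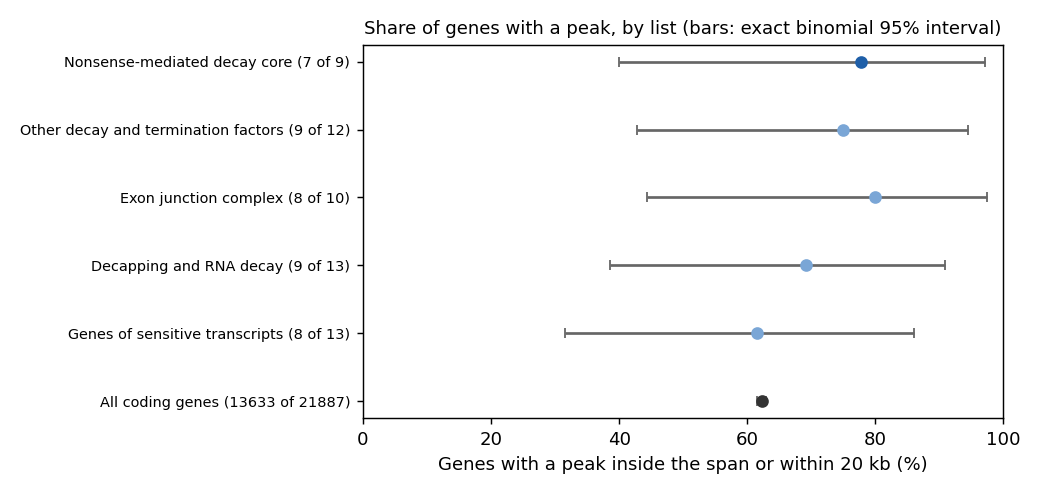
Share of genes with a peak inside the span or within 20 kb (%), for the 9 factors, 4 other lists of the pathway and all coding genes, with exact binomial 95% intervals. The lists lie between 61.5 and 80.0%, and the interval of each holds the 62.3% of all coding genes. The list of sensitive transcripts includes 3 noncoding genes.

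The rest of the pathway was read from 4 further lists, where 34 of 48 genes had a peak in the same window (70.8%, exact interval 55.9 to 83.0%), against 62.3% of coding genes. The shares were 9 of 12 for other decay and translation termination factors, 8 of 10 for the exon junction complex, 9 of 13 for decapping and RNA decay enzymes, and 8 of 13 for genes of transcripts known to be degraded by the pathway. Each interval held the share of all coding genes. That reference is protein-coding only, while 3 of the 48 genes, all in the list of sensitive transcripts, are noncoding. *Etf1*, the release factor that recognises stop codons, had 36.1-fold (31.0 to 41.7), nearest to *Hspa9*. *Mov10*, an RNA helicase that binds Upf1, had 25.3-fold (21.1 to 30.1), nearest to *Capza1*. *Gspt1*, the partner of the release factor, had 12.4-fold (9.51 to 15.8), 1332 bp outside its span. *Nbas*, a factor of this decay pathway and of vesicle transport, had 4 peaks, the best at 11.4-fold (8.64 to 14.7) inside the gene. *Ruvbl1*, *Gspt2* and *Ncbp2* had no peak.

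In the exon junction complex, the core helicase gene *Eif4a3* had no peak, and neither did *Sap18*. *Cwc22*, the splicing factor that loads Eif4a3 on RNA, had 7 peaks, the best at 21.9-fold (18.1 to 26.4) inside the gene. Of the genes for core subunits, *Casc3* had 14.4-fold, nearest to *Msl1*, and *Rbm8a* had 11.2-fold 569 bp outside the gene. The core subunit genes *Magoh* (6.58-fold, nearest to *Czib*) and *Magohb* (5.78-fold, 5496 bp outside the gene) had lower values. *Rnps1*, for an associated protein, had 7.78-fold 2199 bp outside the gene. Among decay enzymes, *Cnot1*, the scaffold of the deadenylase complex, had 7 peaks, the best at 53.5-fold (47.3 to 60.2) inside the gene. The decapping genes *Edc3* (39.1-fold, nearest to *Clk3*), *Dcp1a* (32.0-fold, inside the gene) and *Dcp2* (25.9-fold, inside the gene) followed. *Dcp1b*, also of decapping, and *Cnot8*, *Skiv2l* and *Dis3* had no peak. The median best fold of genes with a peak was 23.9 in that list, 7.98 in other decay and termination factors and 7.48 in the exon junction complex. It was 10.1 in genes of sensitive transcripts, against 12.2 over all coding genes. Each list median rests on 8 or 9 genes, has no interval and was not matched for gene length. For decay enzymes the best folds ran from 5.98 to 53.5, and several of these peaks were nearest to another gene. Their median span was 25.8 kb, against 17.2 kb for all coding genes.

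Among genes of sensitive transcripts, *Snhg12*, a noncoding host of small nucleolar RNAs, had 53.3-fold (47.1 to 60.0), but 19775 bp outside the gene and nearest to *Taf12*. *Tra2b*, a splicing regulator, had 39.3-fold 15337 bp outside the gene. *Srsf7*, of the same class, had 10.4-fold, nearest to *Galm*, and the stress-responsive gene *Gadd45b* had 10.2-fold. *Atf4*, *Gas5*, *Gadd45a*, *Srsf2* and *Srsf6* had no peak within 20 kb.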

How the data were processed

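Samples were grouped by their antibody label, and the authors deposited 1 peak list for the comparison of both libraries. BWA, MACS2 and mm10 are named in the submitters' processing notes. MACS 2.1.0.20151222 was run by the authors in paired-end mode at a q-value of 0.01 with 1 fragment kept per position, per the file headers. After duplicate removal 26253175 antisera and 23412256 control fragments remained. For mapping settings and read filters, no source used here gives details. The authors' pileup signal counts antisera fragments at the summit, per the file headers. The deposited fold is the ratio of pileup plus 1 to local background plus 1. The authors' −log10 p-value and −log10 q-value are the caller's own. All these scores are the authors' and were used only within the list.

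Local background was recovered from pileup and fold, and the Poisson −log10 p recomputed from it was within 1% of the deposited value in 100% of 50104 peaks with a finite value. Gene spans and starts came from RefSeq tables for GRCm38.p6, the assembly of mm10, on the autosomes, X and Y. All 9 members and 48 further list genes were matched by symbol. Intervals are 95%, Poisson for pileups and counts and exact binomial for shares. No test was run, since each group has 1 library. No genome sequence was used, so exons were not assigned, and the planned motif shares were computed on promoter windows in place of peaks. All members are named, with up to the 3 strongest peaks each in full (all 5 for *Smg1*). Of each other list at most 4 members are named by fold, and *Magoh* and *Magohb* were added to complete the core subunits. List genes without a peak were named after their values were seen. All coding genes include the members. An item of the pathway is not reported here. Members and lists were chosen with earlier results of these data known. Window assignment was tested on simulated data. Analyses used Python 3.11.15, pandas 2.3.3 and scipy 1.17.1. Alternatives were other distances, stricter q-values, overlap by any base, a limit on local background or fold, the nearest gene only, other start distances and looser motifs.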

Additional observations from a re-analysis of the deposited data

How the results depend on the processing

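With the gene span alone, members with a peak fell to 4 and their peaks to 9, against 7 and 14 in the 20 kb window. The share of coding genes also fell, to 32.3%. The pathway counts were then 4 for other decay factors, 2 for the exon junction complex, 4 for decay enzymes and 3 for genes of sensitive transcripts. Within 5 kb the exon junction complex had 5 of 10 and the sensitive transcripts 3 of 13, against 43.2% of coding genes. Other decay factors had 7 of 12 there and decay enzymes 6 of 13. These windows hold fewer bases by construction. A summit within 5 kb of the start was found for 2 of 9 members, against 3498 of 17492 coding genes, and within 1 kb of either span end for 0 of 9, against 7.47%. In the other settings no count moved by over 1.5 times: members with a peak were 5 to 8 and peaks 11 to 18. The share of all coding genes moved alongside. It was 46.8% for the nearest gene only, where 5 members had a peak, and 81.2% within 50 kb, where 8 had. The shares of coding genes in these settings were not matched for gene length. Density and median best fold are not given for the limit on fold or for the nearest gene only. Over the remaining settings, the gene span included, density was 12.2 to 18.1 per Mb and median best fold 12.1 to 15.4. These densities lie within the interval of the main density (8.21 to 25.2). The median best fold has no interval, and the best folds of the 7 members ran from 6.18 to 36.1. Its highest value, 15.4, came from pileup over local background with no pseudocount, which is a different scale. *Upf1* had no peak under any setting, and *Upf3a* only within 50 kb. For *Upf1* this was fixed in advance. Its nearest summit lay 52.0 kb away, beyond the widest setting, and stricter settings can only remove peaks. Motif windows around summits and whole peaks were not run, since no genome sequence was used. The half-site search was chosen after seeing the data. No paired analysis was possible because each group has 1 library. At this depth a site with fewer than about 13 fragments at the lowest background would not be listed.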
